A study of Mus musculus with 6 samples.

Results

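The myelin structural genes described here are Mbp, Mobp, Mal, Mag, Mog, Cldn11, Opalin, Cnp and Ermn, found by their symbols in the deposited table of normalized counts, with 1 row each. They are 9 of the 24935 genes in that table. Pups of the C57BL/6 strain and their dams were kept in room air or in 85% oxygen (hyperoxia) from P2 to P14, where P stands for postnatal day, and RNA from the left hippocampus was sequenced at P14, with 3 pups per group. Pups of both sexes were exposed, the sex of the sequenced pups is not given, and no altered allele or further treatment is named for either group. The deposited columns are named by group and by a number from 1 to 3 that names no animal, so a library is called here by its group and column number, and every direction rests on these names alone. Of the genes named here, those whose mRNA change stands in the study's readable tables are Mal, Cspg4, Slc17a7 and Prox1. For each of them the sign printed there is the opposite of the one these columns give, though Prox1 was significant in neither. Whether the group names of the columns were exchanged could not be settled from the sources used here, and an exchange would turn the sign of every log2 difference given here and leave its size and p. Libraries held 30384052 to 38746972 reads on genes, and the members had between 330.0 reads (Opalin, hyperoxia library 2) and 172407 reads (Mbp, air library 3) in a library.

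Myelin is the lipid-rich sheath that oligodendrocytes wrap around axons in the central nervous system. Its compacted layers are held together by adhesive proteins, while cytoplasmic channels, surface glycoproteins and tight junctions keep the sheath open to transport, attached to the axon and sealed at its edges. In the rodent hippocampus, oligodendrocytes differentiate from precursors and begin to form these sheaths in the first weeks after birth, the period of the exposure studied here.

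The bases just before the start of 4 members are shown here because these genes span the range of the fold changes, from Mal, whose fold change was the most negative of the members, over Mobp and Mag to Cnp, which did not pass the test. The sequences are from RefSeq promoter entries on GRCm38.p6, 5′ to 3′ on the gene's strand, and stop where the gene begins in RefSeq or in the annotation used here. Capitals mark matches to ACAAAG or ACAATG, the core bound by SOX proteins such as SOX10, and to CTGGCAC or CTGGTAC, the letters bound by MYRF, both of which are transcription factors of oligodendrocytes, on either strand, with no overlap between the marked matches. The Mal sequence covers chr2:127656696-127656945 on the minus strand, Mobp chr9:120149492-120149706 on the plus strand, Mag chr7:30914874-30915113 on the minus strand and Cnp chr11:100574689-100574903 on the plus strand.
Mal: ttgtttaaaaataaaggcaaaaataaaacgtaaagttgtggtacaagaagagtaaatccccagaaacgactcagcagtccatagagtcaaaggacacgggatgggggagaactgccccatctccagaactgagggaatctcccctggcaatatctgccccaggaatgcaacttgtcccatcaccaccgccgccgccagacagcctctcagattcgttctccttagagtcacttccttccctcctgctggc
Mobp: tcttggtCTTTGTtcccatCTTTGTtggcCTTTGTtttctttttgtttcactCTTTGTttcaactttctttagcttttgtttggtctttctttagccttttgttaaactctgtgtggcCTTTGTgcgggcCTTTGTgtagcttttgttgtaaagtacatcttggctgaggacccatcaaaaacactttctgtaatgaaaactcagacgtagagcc
Mag: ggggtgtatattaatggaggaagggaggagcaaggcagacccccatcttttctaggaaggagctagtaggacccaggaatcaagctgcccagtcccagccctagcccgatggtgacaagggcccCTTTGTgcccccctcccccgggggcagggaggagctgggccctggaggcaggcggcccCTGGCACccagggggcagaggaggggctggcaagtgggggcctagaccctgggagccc
Cnp: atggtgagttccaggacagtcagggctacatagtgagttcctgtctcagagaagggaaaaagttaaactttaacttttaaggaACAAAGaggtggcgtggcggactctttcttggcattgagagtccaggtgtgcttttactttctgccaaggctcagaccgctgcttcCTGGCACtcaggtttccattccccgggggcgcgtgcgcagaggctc

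In the 250 bases before the start, the SOX core stood in 25.2% of 32851 RefSeq promoters and in those of 5 of the 8 members searched (Cnp, Ermn, Mag, Mobp and Opalin), with 6 matches in Mobp. Mag has 3 entries and was counted where any of them held a match. The MYRF letters stood in 5.93% of the promoters and in those of Cnp, Mag and Mog. The E-box CAGCTG, the letters bound by OLIG2, stood in 13% of the promoters and in 0 of the 8 members. Mbp was not searched. The window of Mal, the member that fell most, and the window of Cldn11 held none of these letters, and Cnp, the member that did not pass the test, held both a SOX core and the MYRF letters. A match in these windows describes the letters only.

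With the groups as the columns name them, transcripts of 8 of the 9 myelin structural genes were lower in the hippocampus of hyperoxia-exposed mice than of air-exposed mice, and the ninth, Cnp, did not pass the test. The fold changes on the log2 scale, hyperoxia minus air, ran from -1.69 for Mal to -0.30 for Cnp, with a median of -0.73, against a median of -0.01 over the 17778 genes tested. Among all genes tested, 15.6% passed in the lower direction, 14.9% in the higher direction and 30.5% in either. For the same 8 members no hyperoxia library reached the lowest air library, as was so for 23.8% of all genes tested, while 22.3% of genes had the hyperoxia group wholly above. Since the tissue was sequenced whole, fewer oligodendrocytes and less of these transcripts per oligodendrocyte cannot be told apart. Each gene with a mean normalized count of at least 10 was tested with limma on log2 of the normalized count plus 1, which understates the change of low genes, and a gene is said to have passed, risen or fallen where its p, after Benjamini-Hochberg adjustment over the whole set of tested genes, was under 0.05.

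**Figure D1:**
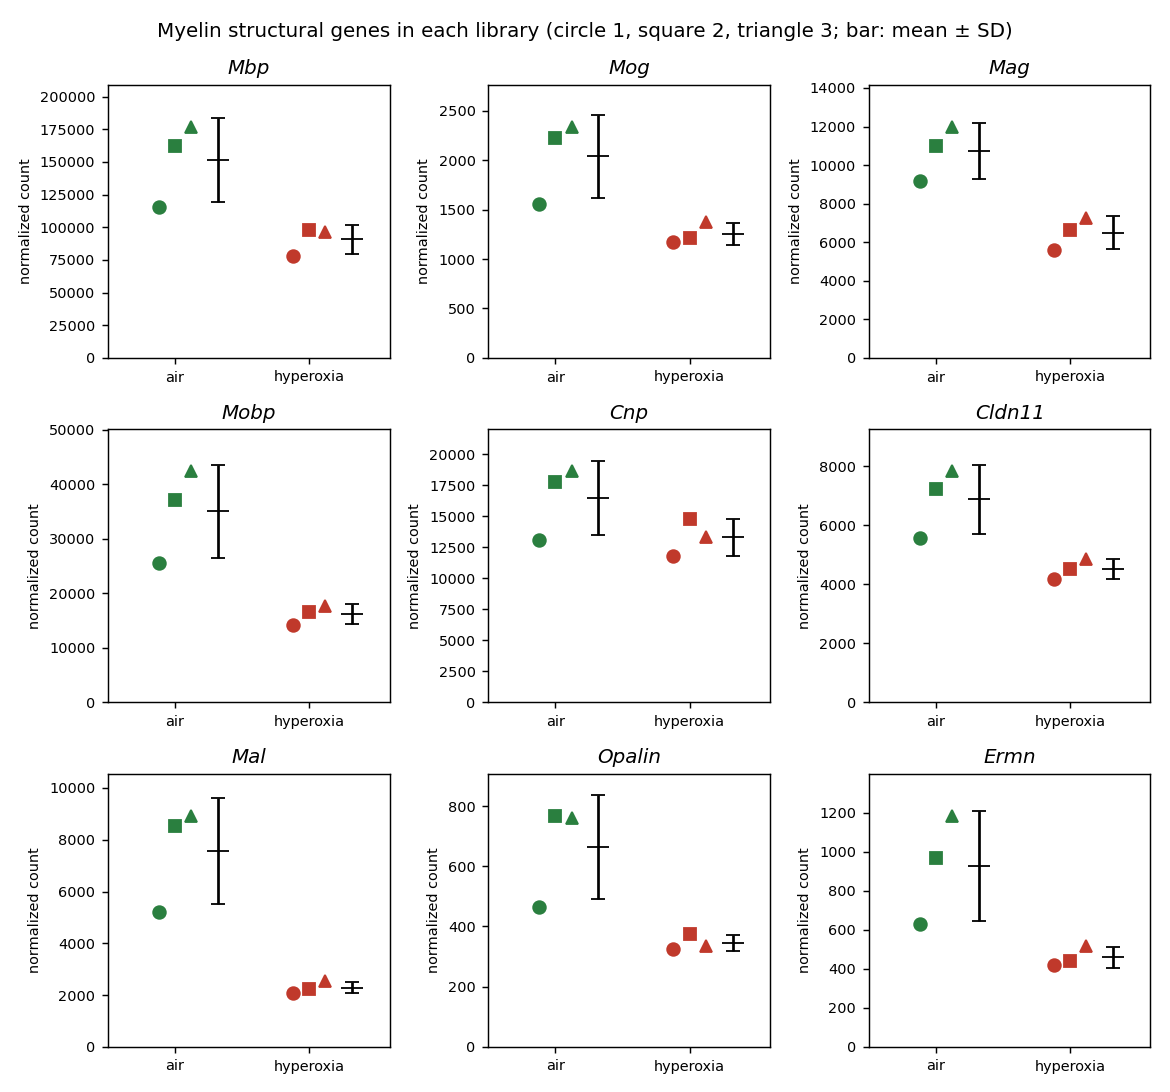
Normalized counts (vertical axes, each starting at 0) of the 9 myelin structural genes in each of the 3 air and 3 hyperoxia libraries, with the mean ± SD of each group beside its points. The hyperoxia libraries lie below all air libraries in each panel but that of Cnp, and air library 1 (circle) is the lowest air library in every panel.

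Mbp, Mobp and Mal encode proteins of compact myelin. Mbp encodes myelin basic protein, which glues the cytoplasmic faces of the membrane together, and lies at chr18:82475146-82585637 on the plus strand of GRCm38. Its normalized counts were 115248, 162481 and 177001 in the air group (libraries 1, 2 and 3, in this order throughout) and 77726, 98222 and 96047 in the hyperoxia group. The group means were 151577 ± 32288 in air and 90665 ± 11258 in hyperoxia (SD, n = 3). The highest hyperoxia library was below the lowest air library, and air library 1 stood nearer to the hyperoxia group than the other air libraries did. The log2 fold change of Mbp was -0.73 (SE 0.17, adjusted p = 0.010, limma), and the hyperoxia mean was 59.8% of the air mean. This call was lost under quantile normalization (-0.43, adjusted p = 0.065) and without air library 2 (-0.66, adjusted p = 0.053, limma). The count of Mbp adds all transcripts of its locus, which is also the source of the golli transcripts found outside oligodendrocytes.

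Mobp encodes myelin-associated oligodendrocyte basic protein, a small basic protein of the same cytoplasmic faces, and lies at chr9:120149707-120181484 on the plus strand. It had normalized counts of 25620.3, 37053 and 42406 in air and 14147, 16639 and 17707 in hyperoxia. The group means were 35026 ± 8574 in air and 16164 ± 1827 in hyperoxia (SD, n = 3). All hyperoxia libraries were lower than all air libraries, with a gap wider than the range within the hyperoxia group. The log2 fold change was -1.09 (SE 0.17, adjusted p = 0.0019, limma), which left 46.1% of the air mean.

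Mal encodes a proteolipid of membrane rafts that takes part in sorting membrane to myelin, and lies at chr2:127633226-127656695 on the minus strand. Its normalized counts were 5216, 8547 and 8934 in air and 2099, 2236 and 2535 in hyperoxia. The group means were 7566 ± 2044 in air and 2290.0 ± 223 in hyperoxia (SD, n = 3). The hyperoxia libraries lay close together and far below the air libraries, of which even the lowest, library 1, had 2.06 times the count of the highest hyperoxia library. The study prints the opposite sign for this gene, and the doubt about the columns' group names described above holds for every member. By these names, the log2 fold change of Mal was -1.69 (SE 0.18, adjusted p = 0.00049, limma), and the hyperoxia mean was 30.3% of the air mean. Of the 17778 genes tested, 49 had a more negative fold change, and 40 of these passed the test. The change in Mal passed under all 18 alternatives, between -1.94 and -1.49 on the log2 scale.

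Mag, Mog, Cldn11 and Opalin encode proteins of the sheath's surface and seams. Mag encodes myelin-associated glycoprotein, an adhesion molecule on the innermost layer that faces the axon, and lies at chr7:30899176-30914873 on the minus strand. Its normalized counts were 9168, 11011 and 11997 in air and 5598, 6634 and 7259 in hyperoxia, with no overlap between the groups. Mag had the smallest SE of the members, with a log2 fold change of -0.72 (SE 0.12, adjusted p = 0.0026, limma). Mog encodes myelin oligodendrocyte glycoprotein, found on the outermost layer, and lies at chr17:37010743-37023398 on the minus strand. It had 1556, 2221 and 2341 normalized counts in air and 1169, 1215 and 1378 in hyperoxia, where all libraries stayed below air library 1. Its log2 fold change was -0.68 (SE 0.14, adjusted p = 0.0073, limma).

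Cldn11 encodes claudin 11, the tight junction protein of the myelin sheath, and lies at chr3:31149920-31164324 on the plus strand. Normalized counts of Cldn11 were 5569.5, 7224 and 7838 in air and 4186, 4533 and 4847 in hyperoxia. The group means were 6877 ± 1174 in air and 4522 ± 331 in hyperoxia (SD, n = 3). The groups did not overlap, and this was the smallest of the changes that passed, with a log2 fold change of -0.59 (SE 0.12, adjusted p = 0.0063, limma). Opalin encodes a transmembrane sialoglycoprotein of oligodendrocytes and lies at chr19:41061710-41077113 on the minus strand. Its normalized counts were 465, 768 and 759.7 in air and 326, 374 and 335 in hyperoxia, and the hyperoxia libraries lay close together below air library 1. Opalin changed by -0.91 on the log2 scale (SE 0.18, adjusted p = 0.0053, limma), with 51.9% of the air mean left. The calls for Mog (-0.49, adjusted p = 0.053) and Cldn11 (-0.40, adjusted p = 0.057, limma) were lost where libraries were scaled by their summed reads per kilobase, a scaling that moved the median of all genes to 0.19.

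The last members, Cnp and Ermn, encode proteins of the cytoplasm and cytoskeleton of the sheath. Ermn encodes ermin, an actin-binding protein that appears late in oligodendrocyte maturation, and lies at chr2:58045113-58052864 on the minus strand. Its normalized counts were 628, 967 and 1185 in air and 417, 440.4 and 517 in hyperoxia. The group means were 927 ± 280.5 in air and 458 ± 52.4 in hyperoxia (SD, n = 3). All hyperoxia libraries were lower, and the air libraries spread more widely than those of any other member relative to their mean. Ermn changed by -0.97 on the log2 scale (SE 0.20, adjusted p = 0.0065, limma).

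Cnp encodes the phosphodiesterase CNPase, which keeps cytoplasmic channels in the sheath open and which the study also stained as a myelin protein. The study reports a smaller stained area for CNPase in CA1, a hippocampal region, after hyperoxia at P14. That is a measure of protein in other mice, not of RNA. The gene lies at chr11:100574904-100591729 on the plus strand. Its normalized counts were 13068, 17759 and 18632 in air and 11783, 14789 and 13336 in hyperoxia, so the groups overlapped, with air library 1 below hyperoxia libraries 2 and 3. The log2 fold change was -0.30 (SE 0.14, adjusted p = 0.125, limma), with a 95% interval of -0.60 to 0.01. Cnp passed in the lower direction without air library 1 (-0.46, adjusted p = 0.030) and without hyperoxia library 2 (-0.38, adjusted p = 0.036, limma). Cnp shares 154 exon bases with Dnajc7 on the opposite strand, which had a mean of 4713 normalized counts, Ermn shares 237 with Galnt5 on the opposite strand, which had a mean of 5.14, so reads at these bases can belong to either gene where counting did not use the strand. Mobp shares 79 with Gm38642 on its own strand, which had a mean of 21.4, and reads there can belong to either gene with any strand setting.

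**Figure D2:**
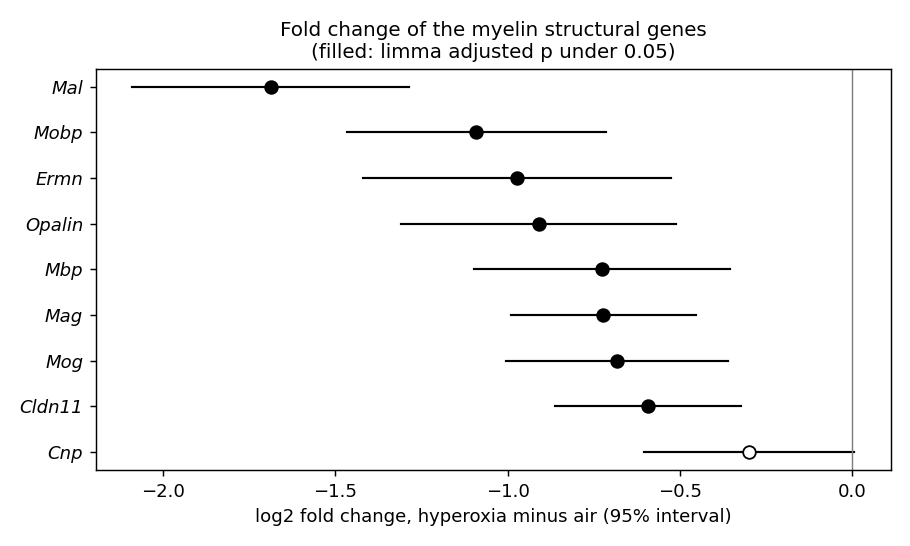
Log2 fold change (hyperoxia minus air, horizontal axis) of each myelin structural gene with its 95% interval from limma, ordered by size. Filled points passed the test. The interval of Mal, from -2.09 to -1.29, lies wholly below that of Cnp, from -0.60 to 0.01.

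Summed over the 9 genes, reads of the myelin structural genes made up 0.484%, 0.690% and 0.755% of the reads on genes in the 3 air libraries, against 0.349%, 0.422% and 0.426% in hyperoxia. Air library 1 was the lowest air library and hyperoxia library 1 the lowest hyperoxia library for each of the 9 genes, so the members also varied together within each group. The count in air library 1 was between 0.584 times (Ermn) and 0.797 times (Mag) the mean of the other air libraries. It was closest to the hyperoxia group for Mog, at 1.13 times the highest hyperoxia library, apart from Cnp, at 0.884 times. Mbp supplied 65.3% to 67.7% of the members' reads in every library. Without air library 1 the median log2 fold change of the members was -0.91 and all 9 passed.

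Levels of different genes are compared as normalized counts per kilobase of exon, averaged over the 3 libraries of a group. The divisor was the length of all annotated exons of a gene, 8469 bases for Mbp, 6849 for Mobp and 3639 for Cnp. Single transcripts can be shorter, so the order of the genes and the share of Mbp depend on this choice. In air, Mbp was highest at 17898 ± 3812 (SD, n = 3), ahead of Mobp at 5114 ± 1252 and Cnp at 4530.4 ± 822. Cldn11 followed at 3678 ± 628, Mal at 2723 ± 736 and Mag at 2634 ± 353, then Mog at 1197 ± 248, Ermn at 255 ± 77.2 and Opalin at 226 ± 58.6. Neighbours in this order from Mobp to Mag overlapped between libraries, as did Ermn and Opalin, whereas Mbp, Mag and Mog each stood clear of the gene that came next. In hyperoxia, Mbp was again highest at 10706 ± 1329 per kilobase, but Cnp at 3656 ± 413 came second and stood clear of Cldn11 at 2418 ± 177. Mobp at 2360.1 ± 267 overlapped with Cldn11, and Mal at 824 ± 80.1 came after Mag at 1596 ± 206 and overlapped with Mog at 736 ± 64.7. Ermn at 126 ± 14.4 and Opalin at 117 ± 8.57 were again the lowest and overlapped. The share of Mbp in the summed level per kilobase of the 9 genes lay between 46.4% and 48.5% in all 6 libraries.

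How far the members moved apart was measured within each library, as the log2 value of a gene minus the mean of the other 8, a measure in which the scale of the library cancels. Relative to the others, Mal was lower in hyperoxia, with a difference of -0.94 on the log2 scale, and Mobp with a difference of -0.27, with no overlap between groups. Cnp was higher relative to the others by 0.62, Cldn11 by 0.29, Mog by 0.19 and Mbp by 0.14, also with no overlap. Each of these 6 differences had p = 0.1 in an exact two-sided permutation test, the smallest p that 3 libraries against 3 can give, so none of the 9 comparisons could pass 0.05. The differences of Ermn (-0.13, exact permutation p = 0.4), Opalin (-0.06, exact permutation p = 0.7) and Mag (0.15, exact permutation p = 0.3) came with groups that overlapped. For every gene but Mal, the mean of the other 8 includes Mal, whose larger fall adds to a positive difference and was not taken out.

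**Figure D3:**
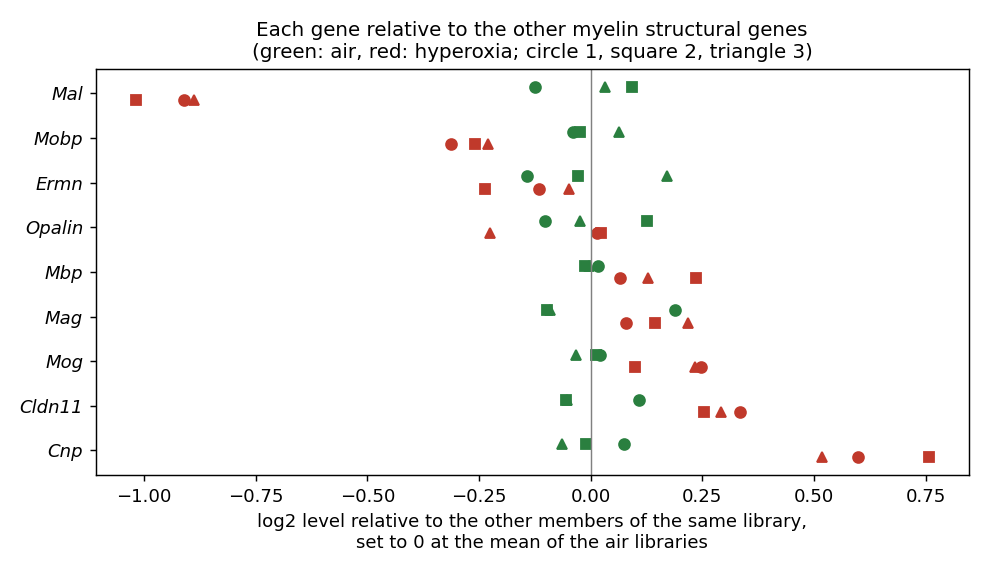
Log2 level of each myelin structural gene relative to the mean of the other 8 in the same library (horizontal axis), set to 0 at the mean of the air libraries. Mal sits between -1.02 and -0.89 in the hyperoxia libraries and Cnp between 0.52 and 0.76, while the air libraries stay within 0.19 of 0.

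Other genes of myelin and of the oligodendrocyte lineage were taken from lists written for this comparison, and each list is described by its counts and its median beside those of all genes tested. Of all genes tested, 14.9% rose and 15.6% fell, with a median of -0.01. Of 18 other genes of the myelin and oligodendrocyte membrane, 10 fell and 1 rose, with a median log2 fold change of -0.36. Gjb1, the connexin 32 of oligodendrocyte gap junctions, changed by -1.22 (adjusted p = 0.0011, limma), from 206, 243 and 261 normalized counts in air to 93.7, 123 and 87.8 in hyperoxia. Hapln2 changed by -1.16, Tmem88b by -0.85 and Evi2a by -0.76, so that these falls lay between those of Mal and Mog. Gpm6b, a proteolipid of neurons and glia, was the 1 gene that rose (0.24, adjusted p = 0.047, limma), and 8 of the 18 alternatives did not call it.

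Of 18 genes of the cytoplasm and cytoskeleton of mature oligodendrocytes, 9 fell and 1 rose, with a median of -0.31. The largest falls were those of Trf (-1.06), which encodes the iron carrier transferrin, of Gsn (-0.90), which encodes the actin-severing gelsolin, of Ppp1r14a (-0.79), an inhibitor of myosin phosphatase, and of Apod (-0.63), a lipid carrier, while Kif5b, a kinesin heavy chain used by many cell types, rose by 0.55. Of 18 genes of myelin lipid synthesis, 5 fell, namely Fa2h (-0.83), which makes the hydroxylated fatty acids of myelin galactolipids, Aspa (-0.55), Gltp (-0.46), Elovl1 (-0.45) and Ugt8a (-0.40), which adds galactose to ceramide. Among the 3 that rose, Idi1 (0.36) and Sqle (0.27) belong to cholesterol synthesis, which all cells share, and the median of -0.06 turned to 0.03 with total count scaling and 0.14 with reads per kilobase scaling.

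Of 12 transcription factors of the lineage, 3 fell and 3 rose, with a median of -0.15 that turned to 0.04 with reads per kilobase scaling. Nkx6-2, a homeodomain factor of myelinating oligodendrocytes, fell from 229, 309 and 359 normalized counts in air to 127, 140.4 and 136 in hyperoxia, a log2 fold change of -1.12 (SE 0.16, adjusted p = 0.0016, limma), close to that of Mobp. Myrf, the factor that switches on myelin genes (-0.39, adjusted p = 0.039, limma), and Nkx2-2 (-0.63) also fell and Tcf7l2 (0.76), Sox8 (0.39) and Zfp24 (0.29) rose, of which Sox8 was called under every alternative. Olig1 (-0.03), Olig2 (-0.05) and Sox10 (-0.17), which mark all stages of the lineage, did not pass the test.

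Of 14 markers of oligodendrocyte precursors, 6 rose and 0 fell, with a median of 0.25. Pdgfra, the growth factor receptor that defines these precursors, had 3119, 3084 and 3297 normalized counts in air and 4783, 4624 and 4805 in hyperoxia. All hyperoxia libraries were higher than all air libraries, and the log2 fold change was 0.58 (SE 0.07, adjusted p = 0.00059, limma). Sox6 rose by 1.05, Lhfpl3 by 0.85 and Vcan, a matrix proteoglycan, by 0.66. Cspg4, which encodes the NG2 proteoglycan, rose by 0.41 by the columns' names, and the study prints the opposite sign for it. Ptprz1 rose by 0.44 and was not called once trends on length and GC content were removed, whereas the other 5 passed under every alternative. The doubt about the group names holds for every gene of these lists. Of 14 markers of newly formed oligodendrocytes, 5 rose and 0 fell, with a median of 0.30, namely Tmem163 (0.41), Mpzl1 (0.40), Itpr2 (0.39), Rras2 (0.31) and Tns3 (0.28), of which Mpzl1 was called under every alternative, while Gpr17 (0.19) and Enpp6 (0.33), markers specific to that stage, did not pass. The medians became 0.20 for precursor markers and 0.13 for newly formed oligodendrocyte markers when trends on length and GC content were removed. Ptprz1 is also expressed by astrocytes, and Sox6 by some interneurons.

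**Figure D4:**
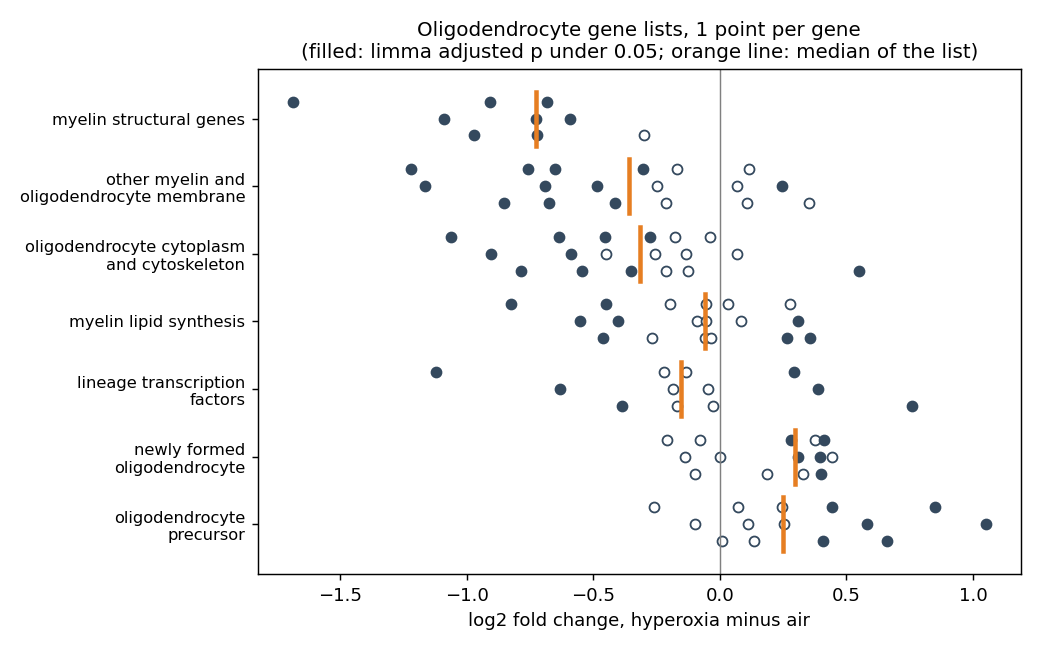
Log2 fold changes (hyperoxia minus air, horizontal axis) of the myelin structural genes and of 6 further oligodendrocyte lists, 1 point per gene, with the median of each list as a vertical line. The medians run from -0.73 for the myelin structural genes to 0.25 for precursor markers and 0.30 for markers of newly formed oligodendrocytes.

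On the axon side, 4 of 16 genes of axons and nodes of Ranvier rose and 2 fell, beside 14.9% and 15.6% of all genes tested. The median of the 16 genes was 0.04 and turned to -0.05 when trends on length and GC content were removed. Cntnap1, which encodes the axonal protein Caspr of the junction between axon and myelin, fell from 12255, 11283 and 11534 normalized counts in air to 7148, 7070.3 and 7155 in hyperoxia, and its change of -0.71 on the log2 scale (SE 0.07, adjusted p = 0.00033, limma) was close to that of Mag. Its axonal partner Cntn1 rose by 0.64, and calls for Scn8a (-0.33), the sodium channel of mature nodes, and for Scn2a (0.56), Kcnq3 (0.51) and Kcna2 (0.28) were lost under some alternatives, with Kcna2 at -0.04 when trends on length and GC content were removed.

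Of the genes of peripheral myelin, which would show nerve tissue from outside the brain, 4 of 6 could be tested, and 1, Egr2 (-0.93, adjusted p = 0.02, limma), fell, a factor that neurons also express.

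Markers of other regions and cell types were counted in the same way, beside the 14.9% of all genes tested that rose and the 15.6% that fell. Of 10 markers of hippocampal pyramidal and granule neurons, 6 fell and 0 rose, of which the calls for Slc17a7, Grik4 and Dsp were lost under some alternatives, and their summed level per kilobase was 22572 to 24454 in air and 15749.6 to 18433 in hyperoxia. Slc17a7, the main vesicular glutamate transporter of these neurons, changed by -0.34, the opposite of the sign the study prints for its mRNA. Neurod6, a factor of pyramidal cells, changed by -0.75, with larger falls of C1ql2 (-1.24) and Spink8 (-0.84). Prox1, the factor that defines granule cells, was at 8194, 7919 and 8665 normalized counts in air and 5298, 5181 and 8533 in hyperoxia and did not pass the test (-0.42, adjusted p = 0.081, limma), though 2 of the 18 alternatives called it. For Prox1 too the study prints the opposite sign, without significance. Of 9 markers of the thalamus, which lies close to the hippocampus, 4 rose and 0 fell, among them Slc17a6 (1.72), Ramp3 (1.36) and Zic1 (0.86), while Prkcd (-0.21) and Lef1 (0.31) did not pass, and their summed level per kilobase was 709 to 803 in air and 1029 to 1428 in hyperoxia. Tcf7l2, named among the factors of the lineage, is also a gene of the thalamus, and hyperoxia library 2 was the highest for both Tcf7l2 and Zic1. The part of these differences in the changes of the myelin structural genes was not tested.

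Of 8 astrocyte markers, 3 rose and 2, Aldoc (-0.37) and S100b (-0.40), fell, the latter calls being lost under 8 and 10 of the 18 alternatives. Of 6 endothelial markers, 2 rose and 2, Ly6c1 (-0.96) and Slco1a4 (-0.36), fell, and of 6 microglia markers, 2 rose and 0 fell. Over all genes tested, 30.5% passed in either direction. Aqp4 of astrocytes rose by 0.53, Cldn5 of endothelial cells by 0.57 and Cx3cr1 of microglia by 0.42, whereas Gfap (0.06), Pecam1 (0.29) and P2ry12 (0.03) did not pass, and summed levels of these 3 lists overlapped between the groups. Of 6 choroid plexus markers, 1, Aqp1, passed and rose, and Ttr, the defining gene of that tissue, was at 272, 167 and 887 normalized counts in air and 350.0, 183 and 7454 in hyperoxia, high in hyperoxia library 3 alone. Enpp2, an enzyme that both oligodendrocytes and the choroid plexus express, was at 3758, 4257 and 4733 in air and 3599, 3492 and 7524 in hyperoxia and was highest in that library too. Without hyperoxia library 3 the members that passed were the same 8.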

How the data were processed

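RNA from the left hippocampus of 3 air-exposed and 3 hyperoxia-exposed pups was sequenced as strand-specific, polyA-selected, paired-end libraries on an Illumina NextSeq. The submitters' processing notes name FastQC, STAR 2.5.3a, HTSeq and DESeq2, and neither they nor the methods give the genome build, the annotation or the strand setting of the counting. The authors deposited 1 signal per gene and library, a read count divided by a size factor of the library. In every library 100% of the values were whole multiples, within 0.01 read, of the value of 1 read, so reads were recovered for edgeR and DESeq2. A further deposited table holds the authors' own comparison (mean, log2 fold change, its error, statistic and p-values) and was not used.

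Genes with a mean of at least 10 were tested in R 4.3.3 with limma 3.58.1 and its mean-variance trend. Values entered as log2(deposited value + 1), and Benjamini-Hochberg adjustment ran over 17778 genes with a threshold of 0.05. No test of the mRNA is named in the study's methods. Nothing in the labels ties the columns to animals, and each library counted as its own sample. Replicate pairs differed by more than sampling noise (chi-square per gene 6.54 to 47.2), which does not show that they are independent. Dams were exposed with their pups, and the litter of each sequenced pup is not given. P-values rest on the spread between these libraries and cannot separate exposure from litter where pups of a group shared a dam.

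The 18 alternatives were TMM scaling, quantile normalization, no filter, a minimum mean of 50, pseudocounts of 0.5 and 5, limma without the trend, edgeR 4.0.16, DESeq2 1.42.0, removal of trends on length and GC content (mgcv 1.9.3), each library left out, and, added after the data were seen, total count scaling and reads per kilobase scaling. Positions, exon lengths and overlaps came from GENCODE M21 on GRCm38, which held 99.68% of the gene identifiers, and 24 symbols that had been turned into dates were restored by identifier. Levels per kilobase divide the deposited value by the length of all exons. Tables were read with pandas 2.3.3 and numpy 2.4.6 in Python 3.11.15 (scipy 1.17.1), and the fits were tested on simulated data. The simulated counts had the same dispersion for every gene, so they do not show how the fits behave at the spread between these libraries. The members and gene lists were chosen with earlier results of these data known. All members are named, with up to 4 called genes of largest change and the first markers of each list, and the genes with the highest correlation with the members, except that some genes are not reported here. Prox1, Enpp2, Gpr17, Enpp6, Olig1, Olig2, Sox10 and the genes that overlap members were named after their values were seen.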

Additional observations from a re-analysis of the deposited data

How the results depend on the processing

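No member changed direction under any of the 18 alternatives. The count of members that fell was 8 in the reported fit, 7 under quantile normalization, 6 under reads per kilobase scaling, 7 to 9 with 1 library left out, and 8 under each other alternative, edgeR and DESeq2 included. Mal, Mobp, Ermn, Opalin and Mag passed under all 18. The log2 fold change of Mobp ran from -1.30 to -0.90, that of Ermn from -1.23 to -0.77, that of Opalin from -1.15 to -0.72, that of Mag from -0.83 to -0.53 and that of Cnp from -0.46 to -0.10. The median log2 fold change of the members ran from -0.91 (without air library 1) to -0.53 (reads per kilobase scaling). That scaling moved the median of all genes to 0.19, and relative to it the members' median was -0.72. It was also the setting that moved the counts over all genes most, to 4779 higher and 1109 lower, against 2643 and 2782 in the reported fit. Total count scaling gave 3754 higher and 1975 lower. With 1 library left out, 1445 to 3838 genes passed as higher and 1603 to 3918 as lower. Both highest counts came without hyperoxia library 2. Over all genes this library differed most from its group, with a chi-square per gene of 31.4 and 47.2. The value between hyperoxia libraries 1 and 3 was 15.1. The cause of these differences between settings was not tested.

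Among the other lists, counts that moved by over 1.5 times included those of newly formed oligodendrocyte markers that rose (5, range 1 to 8), lipid synthesis genes that fell (5, range 1 to 7) and rose (3, range 0 to 6), transcription factors that fell (3, range 1 to 5), hippocampal neuron markers that fell (6, range 3 to 8) and astrocyte markers that fell (2, range 0 to 3), while precursor markers that rose stayed between 6 and 9. No paired analysis was possible because the deposited columns carry no animal number and the labels number the animals of the 2 groups 1 to 3 and 4 to 6. Each group has 3 libraries, depth left at least 330.0 reads for every member and library, and the spread between libraries set the precision.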

Other observations

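Among the 10 genes outside the members whose log2 values followed the members' mean most closely were, over the 6 libraries, Dyrk3 (Pearson r = 0.998), Pdlim2 (0.998), Rmnd1 (0.994), Sfi1 (0.994), Ubxn11 (0.992), Cldn14 (0.991), 1700047M11Rik (0.991), Gm37074 (0.991) and Snx22 (0.99). These values describe 6 points that fall into 2 groups and share their libraries, and are given without a p. Pdlim2 changed by -0.76 (adjusted p = 0.0065, limma) and the long noncoding RNA 1700047M11Rik by -0.98 (adjusted p = 0.0041, limma), close to the changes of Mbp and Ermn. Cldn14, a claudin like the member Cldn11, changed by -0.48 (adjusted p = 0.044) and Snx22 by -0.35 (adjusted p = 0.047, limma), while Dyrk3 (-0.25, adjusted p = 0.075) and Ubxn11 (-0.19, adjusted p = 0.18, limma) did not pass. The mean of the members themselves was lowest in hyperoxia library 1 and highest in air library 3, with air library 1 between the other air libraries and the hyperoxia group.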
